A study of Arabidopsis thaliana with 6 samples.

Results

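The miR170 and miR171 family of Arabidopsis thaliana comprises 4 precursor genes, MIR170, MIR171a, MIR171b and MIR171c. In the deposited small RNA table, every row with a locus name that begins MIR170 or MIR171 was taken, from either arm of the precursor. This gave 6 of the 294 mature sequences listed, 3 from the 3p arm and 3 from the 5p arm. The rows were found by locus name alone. A seedling library was made from each of 6 samples, all with 90 min of treatment in shaking liquid culture according to the labels. The 3 epiBL libraries received 1 µM epibrassinolide (epiBL), an active form of the growth-promoting plant steroid hormones, and the 3 control libraries its solvent. All 6 carried the same genotype, the receptor mutant bri1-5 complemented by wild-type BRI1 fused to Flag and driven by BRI1's own promoter. The labels give neither the seedlings' age nor the number of transgenic lines, and the table holds miRNAs alone, so tissue markers were not checked.

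A plant miRNA is cut by DICER-LIKE1 as a short duplex from the stem of a hairpin transcript, and 1 strand, the guide, is kept by ARGONAUTE1 to find complementary mRNAs. For miR170 and miR171 the guide is the 3p arm. It directs cleavage of HAIRY MERISTEM (HAM) mRNAs, which encode GRAS-domain transcription regulators that keep shoot meristem cells undifferentiated and promote branching. The 5p arm is the partner strand of the duplex. That of miR171a has been reported to act as a guide on the mRNA of the histone methyltransferase homologue SUVH8. The comparison of epiBL with solvent asks which of these small RNAs respond within 90 min to the hormone perceived by BRI1.

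The 6 mature sequences are shown as deposited, in DNA letters from 5′ to 3′, with the seed (bases 2 to 8) in capitals, because sequence decides which reads each row can hold.
miR171a-3p: tGATTGAGccgcgccaatatc
miR170-3p: tGATTGAGccgtgtcaatatc
miR171b/c-3p: tTGAGCCGtgccaatatcacg
miR170/miR171a-5p: tATTGGCCtggttcactcaga
miR171b-5p: aGATATTAgtgcggttcaatc
miR171c-5p: aGATATTGgtgcggttcaatc
All 6 are 21 nt long. miR170-3p and miR171a-3p share the seed GATTGAG, which no other row of the table has, and differ by T12C and T14C (miR170-3p first, counted from 1 at the 5′ end). miR171b/c-3p starts 3 nt further along the shared core, so its seed is TGAGCCG, and over 18 overlapping bases it differs from miR171a-3p by 1. The 3 sequences from the 5p arm each have a seed of their own. miR171b-5p and miR171c-5p differ by A8G (miR171b-5p first), and these were the only members within 1 base of another row of the same length.

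The precursors were read from the TAIR10.1 assembly with the RefSeq annotation. Both arms are in capitals, to show where each counted sequence lies on its stem.
MIR171a: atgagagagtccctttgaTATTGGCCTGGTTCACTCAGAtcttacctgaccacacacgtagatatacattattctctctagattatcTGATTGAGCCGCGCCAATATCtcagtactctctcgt
MIR170: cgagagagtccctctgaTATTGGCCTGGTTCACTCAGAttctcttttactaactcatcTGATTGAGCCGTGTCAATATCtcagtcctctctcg
MIR171b: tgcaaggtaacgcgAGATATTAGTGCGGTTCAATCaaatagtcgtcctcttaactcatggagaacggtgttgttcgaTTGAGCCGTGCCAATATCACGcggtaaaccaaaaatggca
MIR171c: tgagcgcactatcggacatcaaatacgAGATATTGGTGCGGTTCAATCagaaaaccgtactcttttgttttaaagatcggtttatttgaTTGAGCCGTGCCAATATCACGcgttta
MIR171a (AT3G51375) lies at chr3:19073434-19073556 on the plus strand. MIR170 (AT5G66045) lies at chr5:26411580-26411672, MIR171b (AT1G11735) at chr1:3961348-3961464 and MIR171c (AT1G62035) at chr1:22930089-22930204, all on the minus strand. None of the 4 overlaps another annotated gene, and the nearest protein-coding gene to any arm is AT5G66050, 141 bp from the 5p sequence in MIR170. In the predicted folds, 17 base pairs join the arms of MIR170, MIR171a and MIR171b and 18 those of MIR171c, and each arm leaves a 3′ overhang of 2 nt.

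These sequences set what the counts can resolve. The 5p sequence of MIR170 and MIR171a is identical, so 1 row holds both, and the 3p sequence of MIR171b and MIR171c is likewise 1 row. miR170-3p, miR171a-3p, miR171b-5p and miR171c-5p each come from 1 precursor. miR171a-3p has 3 more exact matches in the genome, each on the strand opposite the coding sequence of a HAM gene, where it is the perfect complement of the mRNA.

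The sites on the mRNAs show how the 3p sequences differ. The base-paired site of miR171a-3p was the same in HAM1 (AT2G45160, chr2:18619128-18619148), HAM2 (AT3G60630, chr3:22411544-22411564) and HAM3 (AT4G00150, chr4:58411-58431), in coding sequence on the minus strand. Capitals mark bases that form a G:U pair or a mismatch with the named miRNA.
HAM1, HAM2 and HAM3 with miR171a-3p: gatattggcgcggctcaatca
HAM1, HAM2 and HAM3 with miR170-3p: gatattgGcGcggctcaatca
HAM1 and HAM2 with miR171b/c-3p: AgGgatattggcGcggctcaa
HAM3 with miR171b/c-3p: GgGgatattggcGcggctcaa
HAM4 with miR171a-3p: gGtTttATcAcggctTaatca
SUVH8 with miR170/miR171a-5p: GctgagGAaaccaggccaaCC
miR171a-3p paired at all 21 positions, miR170-3p with 2 G:U pairs, and miR171b/c-3p with 2 mismatches and 1 G:U pair. With 1 point for a mismatch and 0.5 for a G:U pair, HAM1, HAM2 and HAM3 were the 3 lowest-scoring of 27562 protein-coding genes (1 transcript each, no gaps) for each of the 3 sequences from the 3p arm, at 0 points for miR171a-3p, 1 for miR170-3p and 2.5 for miR171b/c-3p. The nearest match in HAM4 (AT4G36710, chr4:17306488-17306508), the family gene not known as a miR171 target, had 5 points with miR171a-3p and 4 with miR170-3p. For the 5p sequence the nearest match in SUVH8 (AT2G24740, chr2:10530600-10530620) had 5 mismatches, and 151 of the 27562 genes had a match as close or closer. These matches describe letters only and do not show binding.

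**Figure D1:**
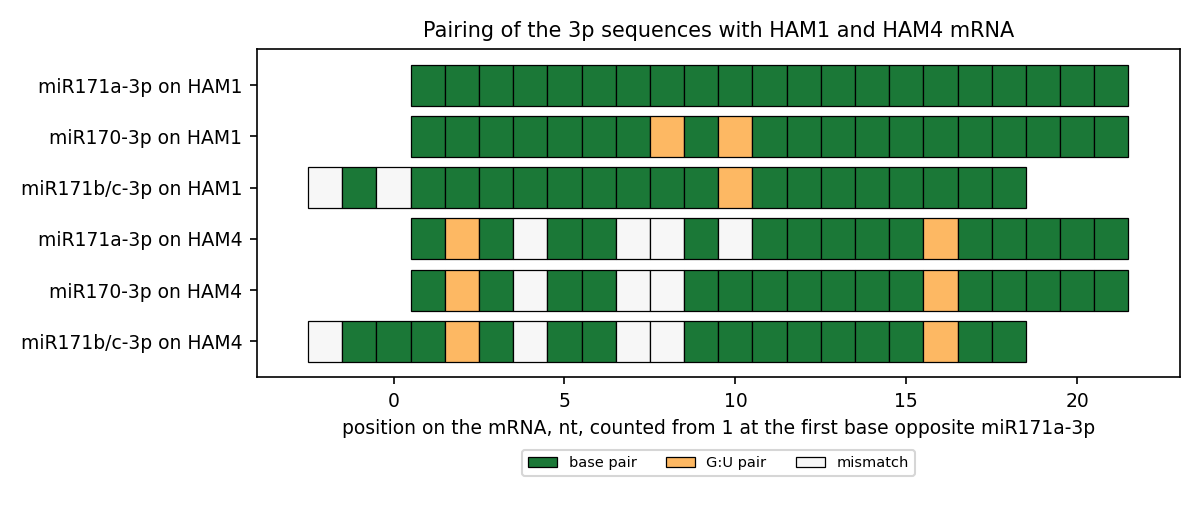
Pairing of the 3 sequences from the 3p arm with their closest site on HAM1 and HAM4 mRNA; each box is 1 mRNA position, counted from 1 at the first base opposite miR171a-3p, coloured by base pair, G:U pair or mismatch. On HAM1, miR171a-3p pairs throughout, miR170-3p has 2 G:U pairs, and miR171b/c-3p is shifted by 3 nt with 2 mismatches at its far end, whereas each has at least 3 mismatches on HAM4.

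Total counts of the table ranged from 3732417 to 4482479 in 5 libraries and were 2050074 in epiBL replicate 3, where 3 counts equal 1.46 CPM (counts scaled to the library total). Of the 294 sequences, 148 passed the filter on low counts and were tested, all 6 family members among them. Libraries were scaled by TMM, and levels are given as CPM of the scaled totals. The labels call the replicates biological without saying whether the cultures were separate; the spread behind each p-value may be technical. Together the 6 members took 0.0325% to 0.0421% of the counts of a library. The commonest, miR171a-3p, ranked 49th of the 294 by mean level and miR170-3p, the scarcest, 111th. In whole seedlings, a change in the number of cells that make a miRNA and a change in its amount per cell cannot be told apart.

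After 90 min of epiBL, 1 of the 6 members rose, 0 fell and 5 did not pass the test. The riser was the 5p sequence shared by MIR170 and MIR171a, which rose 1.30-fold. Over all 148 sequences, 2.70% were called higher and 5.41% lower in edgeR's quasi-likelihood test (Benjamini-Hochberg adjusted p under 0.05). The log2 fold changes of the 6 lay between 0.16 and 0.63 with a median of 0.34, beside a median of 0.00 over all 148, of which 50.7% were above 0. At an unadjusted p under 0.05, 3 members were higher, as were 10.1% of all sequences tested, and 0 were lower. The members share libraries, precursors and scaling, and no test was made of the group.

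Among the guides, miR171a-3p, the perfect complement of the HAM site, was the most abundant. Its level was 179, 181 and 177 CPM in control replicates 1, 2 and 3, from 799, 775 and 732 counts. With epiBL it was 202, 215 and 181 CPM in replicates 1, 2 and 3, from 715, 926 and 324 counts. The controls lay closer together than counting error on such counts would usually give. epiBL replicate 3 lay only just inside their range (181.13 CPM, against 181.15 CPM in control replicate 2), while the other epiBL libraries lay above it. The log2 fold change was 0.16 (SE 0.10, 95% interval -0.06 to 0.38, edgeR adjusted p = 0.335), and it did not pass. The interval reaches up to a 1.30-fold rise. Scaled by total counts alone it was 0.03, or 0.16 relative to the median of all sequences under that scaling, -0.13.

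miR170-3p, which forms 2 G:U pairs with the same site, was much scarcer. It stood at 8.27, 12.9 and 9.46 CPM in control replicates 1, 2 and 3 (37, 55 and 39 counts) and at 12.5, 11.4 and 14.5 CPM in epiBL replicates 1, 2 and 3 (44, 49 and 26 counts). The groups overlapped, with control replicate 2 above 2 of the epiBL libraries. Its log2 fold change of 0.30 (SE 0.25, 95% interval -0.25 to 0.84, edgeR adjusted p = 0.476) had the widest interval of the 6. It was 0.17 without control replicate 1 and 0.50 without control replicate 2, and passed in neither. At 4.63% to 8.02% of the counts of miR171a-3p per library, it added little to the guides of this seed.

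miR171b/c-3p, the guide shifted by 3 nt, had 25.3, 32.7 and 31.5 CPM in control replicates 1, 2 and 3 and 48.7, 33.2 and 40.3 CPM in epiBL replicates 1, 2 and 3. Every epiBL library lay above every control, but epiBL replicate 2 by a narrow margin, and with scaling by total counts alone the groups overlapped. The log2 fold change was 0.44 (SE 0.18, 95% interval 0.06 to 0.83, unadjusted p = 0.0257, edgeR adjusted p = 0.141), short of the threshold over all 148. Without epiBL replicate 2 it was 0.61 (edgeR adjusted p = 0.0152) and past it. Without epiBL replicate 1 it was 0.30 (edgeR adjusted p = 0.394).

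Of the guide counts, miR171a-3p took 81.8% ± 2.20 without and 78.8% ± 3.49 after epiBL, and miR171b/c-3p 13.6% ± 1.46 and 16.1% ± 2.96 (SD, n = 3 each). Both shares overlapped between the groups. The make-up of the guide pool was thus not distinguishable between treatments by the range of these libraries.

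**Figure D2:**
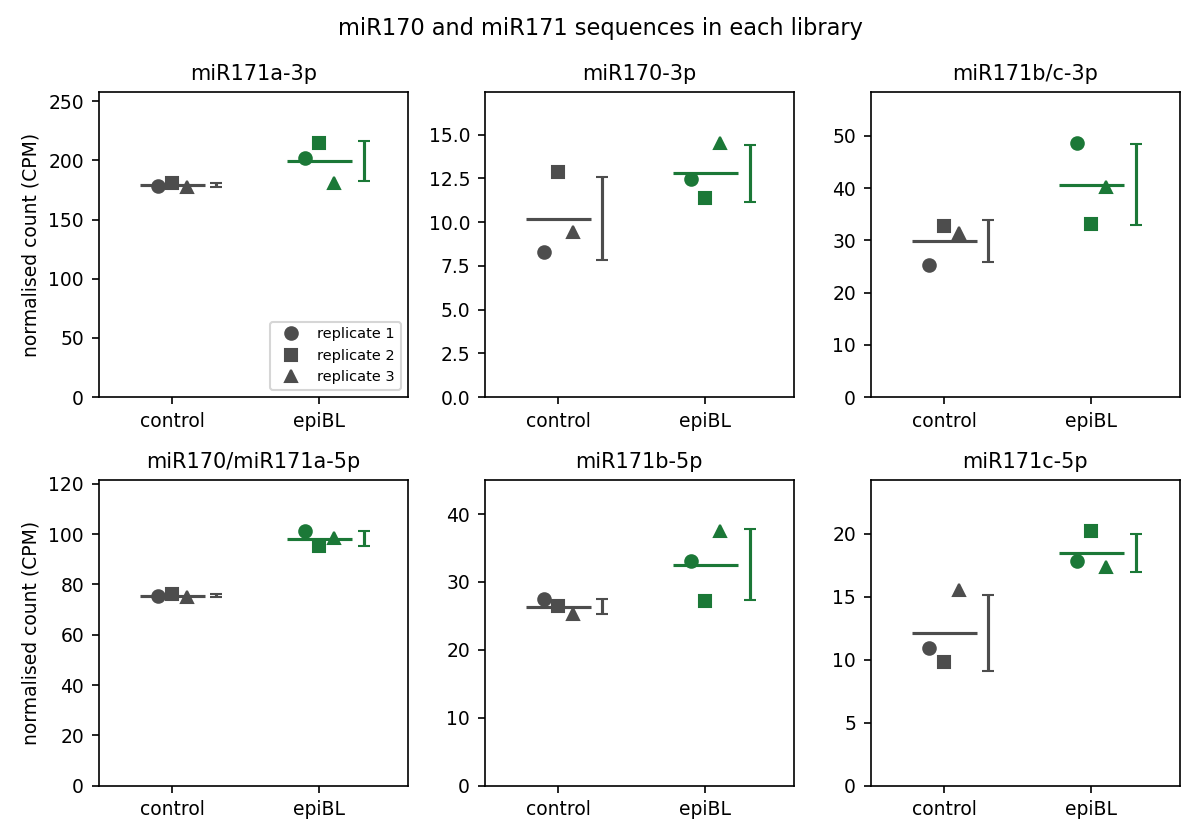
Normalised count (CPM, axes from 0) of each member in each library; points are libraries (circle, square and triangle for replicates 1, 2 and 3), horizontal lines group means and bars ± 1 SD (n = 3). The 3 epiBL libraries sit wholly above the controls for miR170/miR171a-5p, miR171b/c-3p and miR171c-5p, by a narrow margin in the last 2, and overlap them for the other 3.

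Among the 5p sequences, miR170/miR171a-5p was at 75.5, 76.0 and 74.9 CPM in control replicates 1, 2 and 3, from 338, 325 and 309 counts. With epiBL it was at 101, 95.1 and 98.4 CPM in replicates 1, 2 and 3, from 357, 410 and 176 counts. The 2 groups were tight and apart. Within each, the spread was smaller than counting error on such counts would usually give, so it understates the noise. Scaled by total counts alone the 2 groups did not overlap but nearly met, with the highest control at 83.8 CPM and the lowest epiBL library at 85.9 CPM. From 75.5 ± 0.522 to 98.2 ± 2.96 CPM (SD, n = 3 each), the log2 fold change was 0.38 (SE 0.11, 95% interval 0.15 to 0.61, edgeR adjusted p = 0.0403). It was the last of the 12 calls by p. The call was lost with 1 library fewer for 5 of the 6 libraries (every one but epiBL replicate 2; adjusted p 0.0723 to 0.140) and with total counts, upper-quartile factors, no filter or limma-trend (adjusted p 0.0604 to 0.310), while the log2 fold change stayed between 0.25 and 0.50. In the authors' deposited table it had a log2 fold of 0.39 and an unadjusted p of 0.00147.

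miR171b-5p, the partner strand at MIR171b, had 27.5, 26.4 and 25.2 CPM in control replicates 1, 2 and 3 and 33.1, 27.2 and 37.5 CPM in epiBL replicates 1, 2 and 3. epiBL replicate 2 lay within the control range. The log2 fold change was 0.28 (SE 0.17, 95% interval -0.09 to 0.64, edgeR adjusted p = 0.325). It was 0.15 with total counts alone and 0.48 with all libraries thinned to the smallest, and passed in neither.

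miR171c-5p, the partner strand at MIR171c, had 11.0, 9.82 and 15.5 CPM in control replicates 1, 2 and 3 and 17.8, 20.2 and 17.3 CPM in epiBL replicates 1, 2 and 3. The groups did not overlap, though they did when scaled by total counts alone, and control replicate 3 stood nearer to the epiBL libraries than to the other controls. Its log2 fold change of 0.63 had the highest point value of the 6 but a wide error (SE 0.23, 95% interval 0.13 to 1.12, unadjusted p = 0.0171, edgeR adjusted p = 0.0976) and did not pass. In the authors' deposited table its log2 fold was 0.64 with an unadjusted p of 0.00449. Exact matching moves a misread base to the row of a neighbour 1 base away, and here miR171c-5p held 37.2% to 74.4% as many counts as its neighbour miR171b-5p.

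In all, the groups did not overlap in 3 of the 6 members, all 3 higher with epiBL, beside 10.1% of the 148 sequences tested in that direction. With scaling by total counts alone, only miR170/miR171a-5p kept its groups apart, and the share over all sequences was not counted on that scale. By level, miR171a-3p stood above miR170/miR171a-5p in every library. miR171b/c-3p and miR171b-5p followed and overlapped each other, and so did miR171c-5p and miR170-3p below them.

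**Figure D3:**
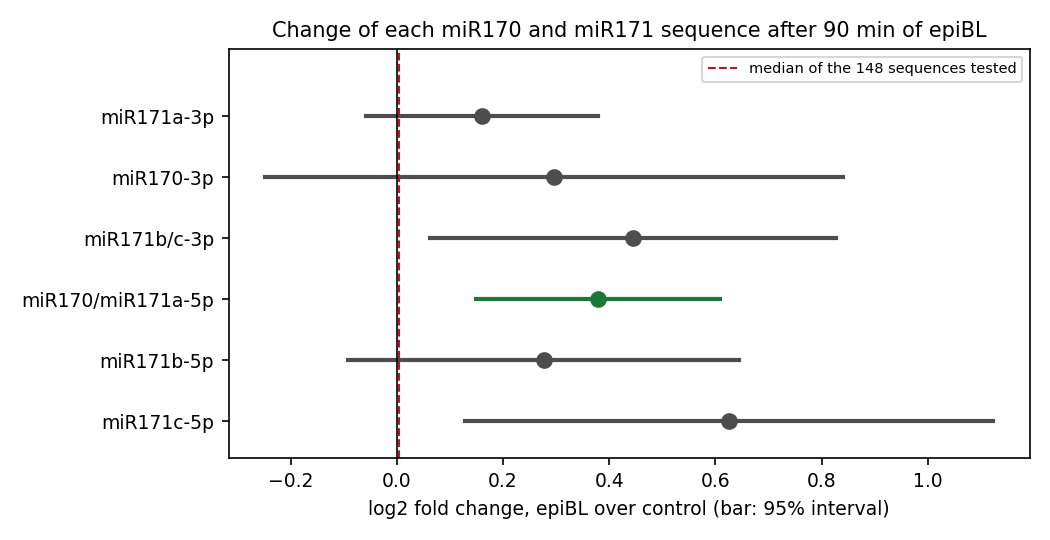
log2 fold change of each member, epiBL over control, with its 95% interval from edgeR's quasi-likelihood fit; the dashed line is the median of the 148 sequences tested, 0.00. All 6 points lie to the right of 0, the intervals of miR171a-3p, miR170-3p and miR171b-5p cross 0, and miR170/miR171a-5p (green) alone passed the adjusted threshold.

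**Figure D4:**
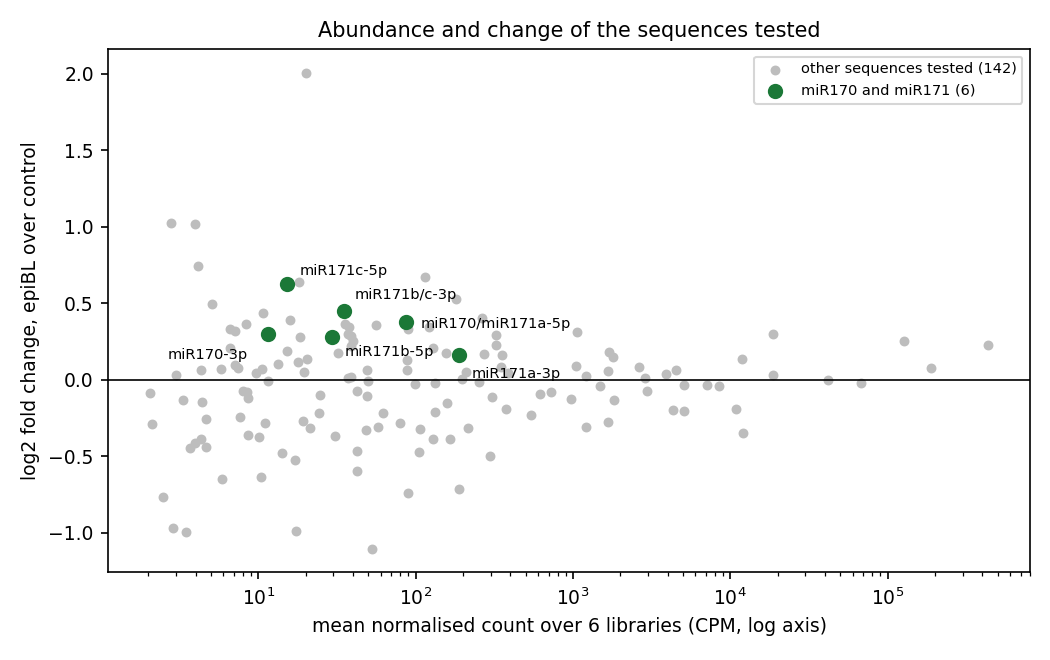
Mean normalised count over the 6 libraries (CPM, log axis) against log2 fold change for the 148 sequences tested, with the 6 members in green. The members lie in the lower and middle range of abundance, from 11.5 to 189 CPM, among other sequences with changes of the same size in both directions.

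The balance of the arms was then compared, to see whether the 5p and 3p sequences of a precursor changed by unequal amounts. Each of the 4 ratios has 1 row shared by 2 precursors, so each is a mixture and none is the ratio of a single precursor. At MIR171a the 5p row held 0.423, 0.419 and 0.422 times the 3p counts in control replicates 1, 2 and 3, and 0.499, 0.443 and 0.543 times in epiBL replicates 1, 2 and 3. The epiBL ratios all lay above the controls, a separation that was not counted over the other arm pairs. The control ratios lay closer together than counting error would usually give, so their spread understates the noise. The log2 ratio differed by 0.23 (SE 0.16, 95% interval -0.13 to 0.58, limma adjusted p = 0.403) and did not pass, so the rise of the 5p sequence was not distinguishable from the change of its 3p partner.

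At MIR170 the same 5p row held 7.66 ± 1.63 times the 3p counts in controls (SD, n = 3) and 7.75 ± 0.859 times after epiBL (SD, n = 3), a log2 difference of 0.03 (SE 0.20, limma adjusted p = 0.916). This ratio is an upper limit for MIR170, since the row also holds the reads of MIR171a. That of MIR171a is an upper limit too, since the row holds the reads of MIR170. The ratios at MIR171b and MIR171c are lower limits, since their 3p row is shared. At MIR171b the ratio was 0.899 ± 0.165 without and 0.810 ± 0.125 after epiBL (SD, n = 3 per group), a log2 difference of -0.15 (SE 0.19, limma adjusted p = 0.664). At MIR171c it was 0.409 ± 0.0986 and 0.468 ± 0.125 (SD, n = 3 each), a log2 difference of 0.19 (SE 0.25, limma adjusted p = 0.659). The groups overlapped at these 3 precursors. Of the 4 ratios, 0 passed in limma, also at an unadjusted p under 0.05, beside 2.22% of the 45 arm pairs tested with adjustment and 20.0% without it.

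The paired rows of these precursors were nearer to equal in counts than most of the 45 pairs tested. Over all 6 libraries the scarcer row had 83.2% of the counts of the other at MIR171b and 44.8% at MIR171a. It had 43.6% at MIR171c and 13.1% at MIR170, where the median of the 45 pairs was 7.03%. Each of these pairs includes a row shared by 2 precursors, so none gives the arm balance of a single precursor. Summed over the 2 precursors that share a row, MIR170 and MIR171a together had 0.399 ± 0.00658 5p counts per 3p count without and 0.465 ± 0.0415 after epiBL (SD, n = 3 per group). MIR171b and MIR171c together had 1.31 ± 0.208 and 1.28 ± 0.203 (SD, n = 3 each). The first pair of precursors therefore had more 3p than 5p reads in every library and the second more 5p than 3p. Over the family, the 5p arm made up 34.2% ± 0.986 of the counts without and 37.1% ± 2.02 after epiBL (SD, n = 3 per group). These shares did not overlap, with the closest libraries at 35.0% and 35.5%. This difference was not tested, and such separations were not counted over other families. The called member, miR170/miR171a-5p, made up 66.3% of the 5p counts without and 65.8% after epiBL, so the share is not separate from that call.

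**Figure D5:**
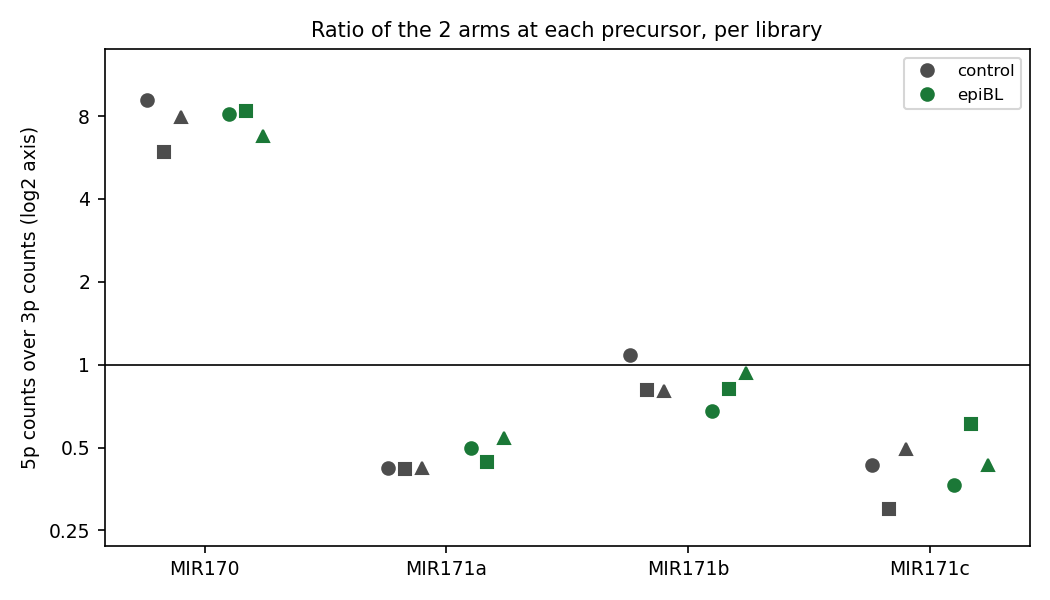
Counts of the 5p row over counts of the 3p row at each precursor (log2 axis), 1 point per library, controls in grey and epiBL in green, with circle, square and triangle for replicates 1, 2 and 3. At MIR171a the control ratios sit together at 0.419 to 0.423, closer than counting error would usually give, and all epiBL ratios lie above them. At the other 3 precursors the groups overlap.

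Other miRNAs of meristem and leaf development were taken by family number: miR164 (acting on CUP-SHAPED COTYLEDON genes), miR165 and miR166 (HD-ZIP III genes), miR319 (TCP genes), miR394 (LEAF CURLING RESPONSIVENESS) and miR396 (growth-regulating factors). Of 16 such sequences 14 were tested, and 0 rose and 0 fell in edgeR's test, beside 2.70% and 5.41% of all 148 sequences. After adjustment there were also 0 in DESeq2 and 0 in limma-trend, beside 16 and 11 of all 148. At an unadjusted p under 0.05, in either direction, there were 1 in edgeR's test, 3 in DESeq2 and 1 in limma-trend, beside 23.6% of all 148 sequences in edgeR's test. Their log2 fold changes ran from -0.28 to 0.64 with a median of 0.01, and 8 of the 14 were above 0. The most abundant, miR166a/b/c/d/e/f/g-3p, had 0.23 (SE 0.13, edgeR adjusted p = 0.274), and 0.35 without epiBL replicate 2, where it passed (edgeR adjusted p = 0.0406).

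The sequences whose levels followed miR170/miR171a-5p most closely over the 6 libraries were miR861-3p, miR393a/b-5p, which acts on auxin receptor genes, and miR164a/b-5p. After subtracting each sequence's own mean, their log2 levels differed from it by a root mean square of 0.07, 0.08 and 0.10, where the median of the 142 other sequences was 0.28. miR861-3p went from 107 ± 8.06 to 137 ± 2.74 CPM, miR393a/b-5p from 290.5 ± 18.3 to 355 ± 21.5 CPM and miR164a/b-5p from 35.0 ± 1.96 to 42.4 ± 4.63 CPM (SD, n = 3 each). All 3 had epiBL libraries wholly above the controls, as did 10.1% of the 148 sequences tested. That separation largely follows from their choice by likeness to a sequence whose groups did not overlap. None of the 3 passed the threshold (edgeR adjusted p 0.0599, 0.0771 and 0.226). Of 15 refits under other settings, miR861-3p passed in 6, miR393a/b-5p in 2 and miR164a/b-5p in 0 (DESeq2 and limma-trend among them).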

How the data were processed

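Per the labels' protocols, total RNA was prepared by mirVana kit, and small RNA libraries (TruSeq) were read on an Illumina GAxII. The authors deposited raw counts of reads identical to an annotated mature miRNA, 1 row per sequence, per the file headers. TAIR10 is named in the submitters' processing notes. Trimming, aligner and miRNA release: not given in the sources used here. Trimmed or extended ends are not counted, and PCR copies are, so limits from counts cover counting error only. Per the file headers, the authors' p-value is an unadjusted EDGE test (tagwise dispersions) headed 0 against 90 min. The labels give 90 min for both groups, and the groups here follow the labels. If the controls were instead taken at 0 min, epiBL and time in culture could not be told apart. The signed fold, log2 fold and −log10 p are also deposited by the authors.

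Tests used edgeR 4.0.16 in R 4.3.3 (filterByExpr with minimum count 10 and total 15, TMM, robust quasi-likelihood), limma 3.58.1 for log2 arm ratios of counts plus 0.5, and DESeq2 1.42.0 as an alternative, at adjusted p under 0.05. The biological coefficient of variation was 10.9%. Folds were predicted with RNAfold 2.7.2. Tested on simulated counts of 148 sequences, epiBL against control recovered 74.4% of 1.5-fold and 94.5% of 2-fold changes and called 1.18% of unchanged ones. Changes below 1.5-fold, the size seen in every member but miR171c-5p, were not simulated. For arm ratios it recovered 95.8% of changes of at least 2-fold and 42.5% of smaller ones, and called 1.4% of unchanged ones. Arm changes as small as those of the members (log2 differences from -0.15 to 0.23) were not simulated either. No pair of libraries of a group agreed within sampling noise. Replicate numbers did not pair the libraries. Named are all members, the calls and the most abundant sequence of the developmental list, and the 3 sequences nearest in level to each called member. Members, lists and tests were chosen with earlier results of these data known. TAIR10.1 coordinates come from exact sequence matches, counted from 1.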

Additional observations from a re-analysis of the deposited data

How the results depend on the processing

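All 6 members had a log2 fold change above 0 in each of 15 refits. Of values for single sequences and arm pairs, 176 stayed on the same side of 0 and of the threshold. A further 9 dropped out of it (all of them miR170/miR171a-5p), 14 came past it and 5 changed sign. Those that came past it were of the members miR171b/c-3p and miR171c-5p, but mostly of the non-members miR861-3p, miR393a/b-5p and miR166a/b/c/d/e/f/g-3p. In 1 setting the threshold itself was raised to 0.1. There miR171c-5p, miR861-3p and miR393a/b-5p came past it with unchanged values (edgeR adjusted p 0.0976, 0.0599 and 0.0771). The 12 calls over all sequences became 22 with a replicate block, 26 at an adjusted p under 0.1 and 5 to 25 with a library removed. Removal of epiBL replicate 2 gave 25, of control replicate 3 gave 7, and of either control replicate 2 or epiBL replicate 3 gave 5. Calls were 4 higher and 8 lower, against 2 and 15 with total counts, which moved the median of all sequences to -0.13; relative to it miR170/miR171a-5p was at 0.37.

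Same-numbered libraries did not deviate together, with correlations of -0.09, 0.14 and -0.11, and 2 of 6 were closest to the library of their own number, so no pairing was used. With the block miR171c-5p passed (0.66, adjusted p = 0.0284), and arm pairs called numbered 2 in place of 1. They numbered 3 with a pseudocount of 5, 2 at an adjusted p under 0.1, 0 with each arm at 1 read or more, and 0 to 1 with a library removed (1 without control replicate 3). The change in log2 arm ratio ran from -0.14 to 0.17 at MIR170 and from -0.0124 to 0.35 at MIR171c when 1 library was left out. It was -0.0050 and -0.0279 at MIR170 without epiBL replicates 1 and 2, and -0.0092 at MIR171c without epiBL replicate 2. The causes were not tested. Depth limits the scarcer members, with 26 and 31 counts of miR170-3p and miR171c-5p in epiBL replicate 3.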
